A study of Mus musculus with 238 samples.

Results

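The comparison set the livers of dietary restricted mice against the livers of freely fed mice, across all genes. Its members were the 9 liver libraries among the 238 libraries of the series, chosen by their tissue and treatment labels. The restricted group (DR) held mice 61, 62, 64, 65 and 67, and the group fed ad libitum (AL) held mice 63, 66, 68 and 69, with 1 liver library for each mouse. All 9 mice were C57BL/6JN females of 19 months of age, with no transgene or drug in the labels. Per the design text of the series, the livers were sequenced as a check on the diet in mice whose brains were the main subject, and each of these mice also gave up to 15 brain regions (131 libraries; the restricted mice carry the label aDR there). The sources used here do not give the degree of restriction, its start or length, the hour of the last meal or the hour of sampling.

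The liver stores and releases fuel for the rest of the body. When food is scarce, falling insulin and rising glucagon and glucocorticoid turn it from making glycogen and fat to oxidising fatty acids, making ketone bodies and producing glucose from amino acids and glycerol. Its clock, a loop in which the activators BMAL1 and CLOCK switch on their own repressors, is set by feeding times as well as by light, and many enzymes of lipid, bile acid and drug metabolism follow it over the day.

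Each library held between 3.50 and 12.1 M counts (M, mega), and 13461 to 15063 genes had at least 1 count. Mitochondrial genes took 2.96% to 8.04% of the counts and the 10 most abundant genes 17.6% to 24.0%. Neither of these, nor the totals, separated the diets (exact two-sided permutation tests over 9 mice, p = 0.413 to 0.587, against a smallest possible p of 0.0159). The first principal component held 46.1% of the variance and did not follow diet: DR mice 62 and 64 and AL mouse 66 lay at one end of it, and the same 3 libraries had the highest mitochondrial shares. Counts per M of the genes AY036118 and Lars2 together were also highest in mice 62, 64 and 66 (60193.3, 47382.6 and 49095.5). The other libraries held 10514.6 to 38154.9, and the diets did not separate (same permutation test, p = 0.905). The second held 18.7% and had all DR mice on one side of 0 and all AL mice on the other, with DR mouse 67 and AL mouse 68 farthest out. The tissue matched its label. The 12 hepatocyte markers summed to 111507 to 160272 CPM in the DR mice and 113662 to 139691 CPM in the AL mice, and Alb, serum albumin, alone ran from 48699 to 68592 CPM in the DR mice and 44417 to 57516 CPM in the AL mice. CPM is counts per M counts of the library after TMM scaling, and values are always listed for DR mice 61, 62, 64, 65 and 67 and then for AL mice 63, 66, 68 and 69. Because these are bulk samples, fewer cells of a type and less RNA per cell cannot be told apart. The mice are separate animals, but the labels do not give cage or preparation batch.

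Of 11815 genes tested, 26 (0.22%) differed between the diets at an adjusted p under 0.05 in edgeR's quasi-likelihood test. Of these, 18 rose under restriction (0.152%) and 8 fell (0.0677%). They included the circadian clock and clock output genes Usp2, Ciart and Cry1, which rose, and Nr1d1, which fell, and also the lipid droplet gene Plin4, the drug-metabolising flavin monooxygenase Fmo2 and the heme synthesis gene Alas1, which rose. In each of the 26, no DR value overlapped an AL value. Over all tested genes the groups did not overlap for 499 (4.22%), and the median log2 change was 0.02. The log2 change was above 0 for 6250 genes (52.9%). The unadjusted p was under 0.05 for 530 genes that were higher (4.49%) and 544 that were lower (4.6%).

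**Figure D1:**
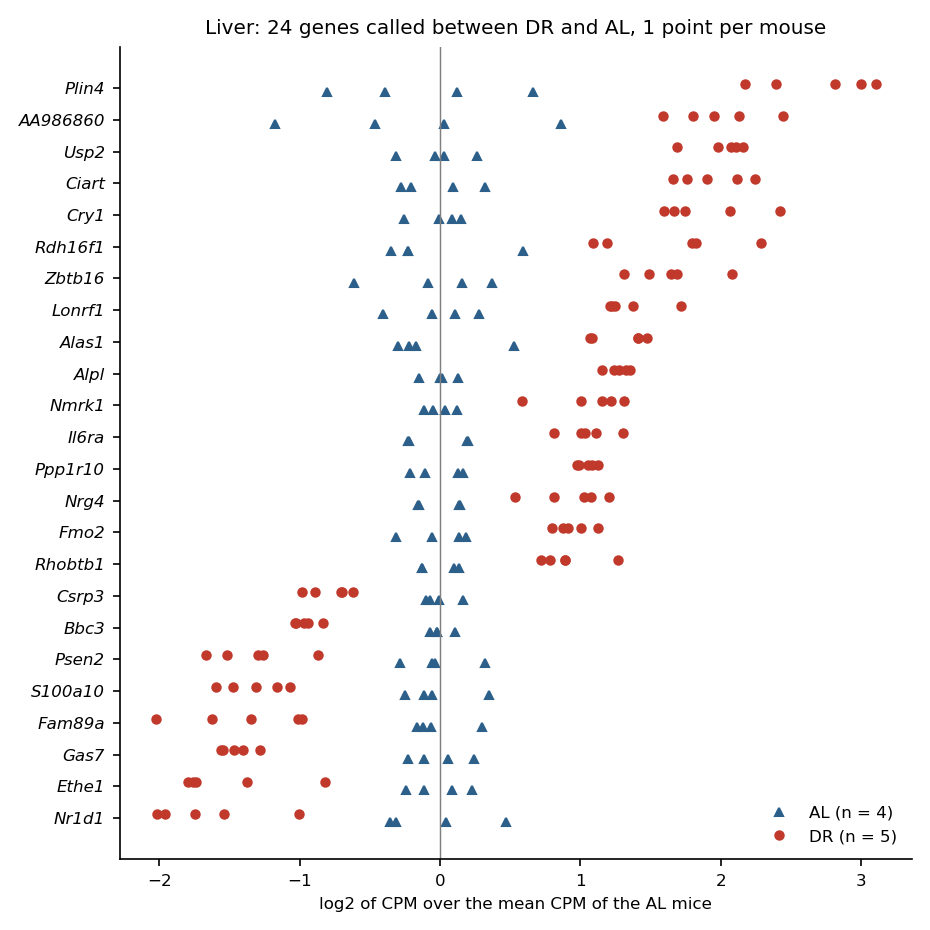
Level of 24 of the called genes in each liver, as log2 of its CPM over the mean CPM of the 4 AL mice (x axis); circles are the 5 DR mice and triangles the 4 AL mice. The 16 genes that rose lie to the right and the 8 that fell to the left, from Plin4 at the top to Nr1d1 at the bottom, and no gene's groups overlap.

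The number of calls moved with every mouse that was left out. It was 55 without DR mouse 61, 10 without 62, 9 without 64, 7 without 65 and 40 without 67. Leaving out AL mice gave 13 calls without 63, 7 without 66, 14 without 68 and 12 without 69. Of the 26 genes, 24, 10, 9, 7 and 24 remained called in the first set of fits and 12, 7, 12 and 11 in the other. Usp2, Ciart, Alpl, Cry1, Plin4 and Gas7 were called in all 9 of these fits. Ppp1r10 was lost only without AL mouse 66, S100a10 only without DR mouse 65, and Zbtb16 without either of those mice. Lonrf1 was called in 4 of the 9 fits and the other 16 genes in 1 to 3. No gene of the 26 changed direction in any fit, but with groups that did not overlap, leaving out a mouse could hardly reverse one. The highest adjusted p was 0.182 (Rdh16f1). All 26 were also called by DESeq2, which called 224 genes (1.9%), 132 higher (1.12%) and 92 lower (0.779%). All 26 were likewise among the 110 genes (0.931%) called by limma voom with sample weights, 60 higher (0.508%) and 50 lower (0.423%). Called and not called refer to edgeR unless another tool is named, and some genes given as not called were called by DESeq2 or voom. Counts of list members at an unadjusted p under 0.05 stand against 4.49% higher and 4.6% lower over all genes. A count near those shares does not set a list apart.

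Clock genes are given by their role. BMAL1, encoded by Arntl (chr7:113207465-113314126, plus strand), and CLOCK bind E-box sequences in their target genes. Arntl was low, at 2.19, 0.925, 0.837, 0.835 and 1.86 CPM in the DR mice and 2.63, 2.57, 2.43 and 3.09 CPM in the AL mice. All 5 DR values lay under all 4 AL values, but the difference did not pass the test (log2 change -1.01, SE 0.32, unadjusted p = 0.00906, adjusted p = 0.287). Clock was at 12.97 to 25.4 CPM in the DR mice and 17.5 to 33.9 CPM in the AL mice, with overlapping groups (log2 change -0.39, SE 0.26, unadjusted p = 0.157, adjusted p = 0.742).

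Of the 10 clock repressors tested, 9 had a higher mean under restriction and 1 a lower one. Cry1 and Ciart rose and Nr1d1 fell. DESeq2 called 4 higher and 1 lower, and voom 3 higher and 1 lower. At an unadjusted p under 0.05, 6 were higher and 1 lower, where 9.09% of all genes passed that mark, 4.49% higher and 4.6% lower. Their median log2 change was 0.58 against 0.02 over all genes, and it lay between 0.53 and 0.68 when single mice were left out. Of the 3 repressors that passed the test, Ciart and Cry1 carry the E-box CACGTG in the 300 bases around their start and Nr1d1 does not. The windows below run from 250 bases before to 50 bases after the RefSeq start (GRCm38.p6, all 3 genes on the minus strand, printed 5′ to 3′ in the direction of the gene), with each CACGTG in capitals. They are shown for the 3 repressors that edgeR called, and a link of these letters to the direction of change was not tested.
Ciart (chr3:95882179-95882478): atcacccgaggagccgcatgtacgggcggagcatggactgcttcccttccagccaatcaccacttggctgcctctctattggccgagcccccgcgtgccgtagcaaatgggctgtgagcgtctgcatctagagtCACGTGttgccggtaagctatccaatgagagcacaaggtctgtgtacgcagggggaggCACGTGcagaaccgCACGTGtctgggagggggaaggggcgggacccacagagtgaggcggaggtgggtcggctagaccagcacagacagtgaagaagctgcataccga
Cry1 (chr10:85185005-85185304): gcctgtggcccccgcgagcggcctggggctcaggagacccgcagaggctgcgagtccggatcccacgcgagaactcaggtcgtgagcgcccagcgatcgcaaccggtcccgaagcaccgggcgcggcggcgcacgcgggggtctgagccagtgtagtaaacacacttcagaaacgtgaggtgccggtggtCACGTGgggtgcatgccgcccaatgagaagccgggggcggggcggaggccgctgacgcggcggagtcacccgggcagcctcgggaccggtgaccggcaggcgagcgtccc
Nr1d1 (chr11:98775328-98775627): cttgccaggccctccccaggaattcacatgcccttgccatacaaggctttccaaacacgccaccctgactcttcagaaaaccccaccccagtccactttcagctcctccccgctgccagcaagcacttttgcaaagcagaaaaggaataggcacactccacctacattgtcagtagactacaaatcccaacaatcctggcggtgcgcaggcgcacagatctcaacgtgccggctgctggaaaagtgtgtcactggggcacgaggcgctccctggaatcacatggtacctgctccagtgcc
The Ciart window holds 3 E-boxes, whose first bases lie 116, 58 and 44 bases before the start, and the Cry1 window holds 1, at 60 bases before it. Of all 32851 RefSeq windows of this length, 7.15% hold a CACGTG, a palindrome that reads the same on both strands, and 8.09% of genes have a window with one. These shares cover all RefSeq genes and not only those tested in liver, so they are not a matched background for the called genes. Among the 19 called genes with an entry, 6 hold one: Bbc3, Ciart, Cry1, Il6ra, Psen2 and Rhobtb1. Of these, 4 rose and 2 fell. The D-box TTATGTAA (0.938% of windows) and the RORE core TAGGTCA (2.61%), searched on both strands, were in none of the called genes' windows. Such matches describe letters and do not show binding.

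Ciart (chr3:95878503-95882251, minus strand) encodes CHRONO, a repressor of the CLOCK and BMAL1 pair. It was at 20.6, 26.4, 22.8, 19.2 and 28.8 CPM in the DR mice and 6.47, 5.01, 7.604 and 5.27 CPM in the AL mice. Even the lowest DR liver, mouse 65, held more Ciart than the highest AL liver, mouse 68 (3.905-fold higher; log2 change 1.97, SE 0.19, adjusted p = 0.00229). Cry1 (chr10:85131700-85185064, minus strand), the cryptochrome that holds CLOCK and BMAL1 silent late in the cycle, was at 12.3, 12.95, 16.2, 11.7 and 20.7 CPM in the DR mice and 4.28, 3.85, 3.24 and 4.098 CPM in the AL mice. The DR values lay between 11.7 and 20.7 CPM and no AL liver exceeded 4.28 CPM (3.81-fold higher; log2 change 1.93, SE 0.21, adjusted p = 0.0047). Its relative Cry2 was at 47.8, 50.1, 48.2, 41.5 and 45.3 CPM in the DR mice and 38.6, 31.2, 32.7 and 32.9 CPM in the AL mice. The Cry2 groups did not overlap, but the change was smaller and was not called (log2 change 0.46, SE 0.12, unadjusted p = 0.00342, adjusted p = 0.201).

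Nr1d1 (chr11:98767932-98775333, minus strand) encodes REV-ERB alpha, a heme-binding nuclear receptor that represses Arntl. It was at 58.3, 35.02, 40.3, 28.9 and 30.1 CPM in the DR mice and 162, 121, 91.6 and 94.3 CPM in the AL mice. The level fell in the DR group, whose highest liver, mouse 61 at 58.3 CPM, was under the lowest AL liver at 91.6 CPM (3.04-fold lower; log2 change -1.60, SE 0.24, adjusted p = 0.0254). An exon of it overlaps Thra, the thyroid hormone receptor alpha gene, on the opposite strand, and without strand the reads of the overlap cannot be assigned. Thra, chosen after its values were seen, was at 15.8, 21.3, 23.2, 12.5 and 8.01 CPM in the DR mice and 29.4, 50.7, 31.7 and 23.8 CPM in the AL mice. It was lower in every DR liver than in any AL liver as well and was not called (log2 change -1.05, SE 0.31, unadjusted p = 0.00549, adjusted p = 0.246).

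The period genes encode the partners of the cryptochromes. Per2 was at 42.8, 99.5, 93.00, 60.7 and 40.1 CPM in the DR mice and 20.6, 25.9, 23.5 and 19.5 CPM in the AL mice. The groups did not overlap, and DR mice 62 and 64 were the highest (log2 change 1.59, SE 0.29, unadjusted p = 1.70e-04, adjusted p = 0.0674). Per1 was at 31.00, 58.6, 63.1, 41.5 and 30.9 CPM in the DR mice and 16.6, 28.4, 37.2 and 18.7 CPM in the AL mice, with overlapping groups (log2 change 0.85, SE 0.30, unadjusted p = 0.0157, adjusted p = 0.375). Bhlhe41, which encodes the repressor DEC2, was at 2.86, 3.701, 3.35, 3.896 and 5.11 CPM in the DR mice and 2.63, 2.57, 1.78 and 2.34 CPM in the AL mice. Every DR value lay above every AL value, at a level of a few CPM (log2 change 0.69, SE 0.23, unadjusted p = 0.0128, adjusted p = 0.34).

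**Figure D2:**
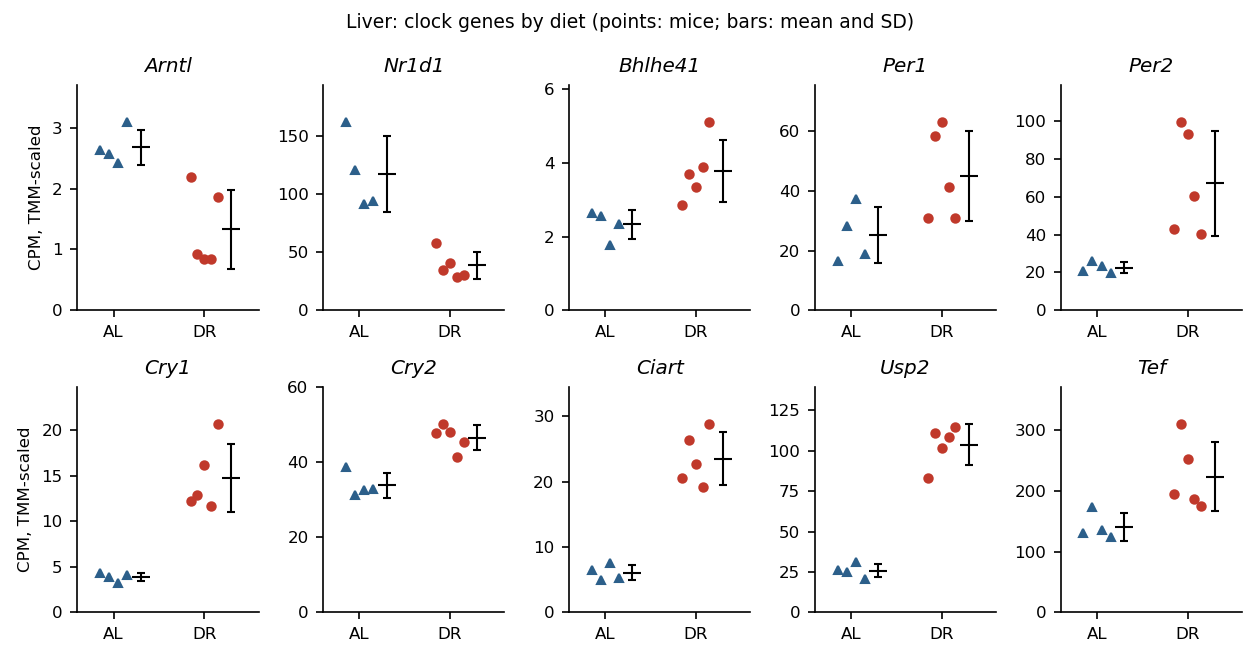
CPM (y axis, from 0) of 10 clock and clock output genes in the livers of 4 AL mice (triangles) and 5 DR mice (circles); the bars show mean and SD. Cry1, Ciart and Usp2 rose and Nr1d1 fell. Arntl, Bhlhe41, Per1, Per2, Cry2 and Tef were not called by edgeR, and of these 6 only Per1 has overlapping groups. DESeq2 called Per2 and Cry2, and voom called Per2.

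Among the 5 clock output genes, 4 were higher and 1 was lower, and 1 rose. Here 3 were higher and 0 lower at an unadjusted p under 0.05, and DESeq2 and voom each called 1 higher. Usp2 (chr9:44067021-44095627, plus strand), a ubiquitin-specific protease with a strong daily rhythm in many organs, had the smallest p of all genes. It was at 83.2, 111, 102, 108 and 115 CPM in the DR mice and 26.3, 25.2, 30.9 and 20.7 CPM in the AL mice. The means were 104 ± 12.4 CPM (SD, n = 5) under DR and 25.8 ± 4.17 CPM (SD, n = 4) under AL, and the groups lay far apart (4.03-fold higher; log2 change 2.01, SE 0.16, adjusted p = 8.82e-04). The output factors of the PAR bZIP family, which bind D-boxes, were not called. Dbp, chosen after its values were seen, was at 132 to 178 CPM in the DR mice and 137 to 171 CPM in the AL mice, with overlap (log2 change 0.07, SE 0.14, unadjusted p = 0.635, adjusted p = 0.959). Tef was at 196, 309.9, 252, 186 and 176 CPM in the DR mice and 130.1, 174, 135 and 124 CPM in the AL mice, without overlap (log2 change 0.67, SE 0.20, unadjusted p = 0.00617, adjusted p = 0.255), and Hlf was at 61.3 to 129 CPM in the DR mice and 54.7 to 74.97 CPM in the AL mice, with overlap (log2 change 0.59, SE 0.21, unadjusted p = 0.016, adjusted p = 0.377). Nfil3, which encodes the repressor of the same D-box sites, was at 5.01 to 13.6 CPM in the DR mice and 9.03 to 13.4 CPM in the AL mice, and DR mouse 67 held 13.6 CPM where the other DR mice held at most 6.91 CPM (log2 change -0.52, SE 0.27, unadjusted p = 0.0748, adjusted p = 0.617).

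Hormone-responsive genes of the fasting liver were taken next. Of 22 glucocorticoid-responsive genes, 17 were higher and 5 lower, and 1 rose. At an unadjusted p under 0.05, 7 were higher and 1 lower, against 4.49% and 4.6% of all genes. DESeq2 called 3 higher, Lpin1 and Angptl4 among them, and voom called 2 higher, Lpin1 among them. Lpin1, Angptl4 and Per1 are also counted in other lists. Their median log2 change was 0.52, but it was 0.09 without DR mouse 67. Zbtb16 (chr9:48654297-48836222, minus strand) encodes PLZF, a zinc finger repressor that glucocorticoid induces in many cells. It was at 48.7, 73.4, 42.9, 55.7 and 54.2 CPM in the DR mice and 11.3, 16.3, 19.3 and 22.4 CPM in the AL mice. The lowest DR liver, mouse 64, lay well above the highest AL liver, mouse 69 (3.17-fold higher; log2 change 1.66, SE 0.22, adjusted p = 0.0153). Lpin1 encodes lipin 1, a phosphatidate phosphatase and coactivator of fatty acid oxidation genes. It was at 315, 268, 297, 258 and 419 CPM in the DR mice and 132, 141, 137 and 191 CPM in the AL mice. All DR values were above all AL values, with mouse 67 highest (log2 change 1.05, SE 0.19, unadjusted p = 1.54e-04, adjusted p = 0.0672). Angptl4, whose product inhibits lipoprotein lipase, was at 58.5, 99.3, 97.9, 91.8 and 148 CPM in the DR mice and 55.7, 61.1, 56.6 and 37.2 CPM in the AL mice, and DR mouse 61 lay inside the AL range (log2 change 0.91, SE 0.25, unadjusted p = 0.0035, adjusted p = 0.203).

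For fat use, 33 of 34 PPAR alpha targets and fatty acid oxidation genes were higher under restriction and 1 was lower, and none was called by edgeR (at an unadjusted p under 0.05, 10 were higher and 0 lower; DESeq2 called 2 higher and voom none). Their median log2 change was 0.40, and 0.19 without DR mouse 67. PPAR alpha is the nuclear receptor that switches on fatty acid oxidation in the fasted liver, and its own gene Ppara, chosen after its values were seen, was at 190.4, 236, 223, 205 and 250.4 CPM in the DR mice and 200.1, 155, 143 and 127 CPM in the AL mice. AL mouse 63 lay inside the DR range (log2 change 0.50, SE 0.16, unadjusted p = 0.0107, adjusted p = 0.307). Eci2, an enzyme for the oxidation of unsaturated fatty acids, was at 189, 230.1, 215, 249 and 278 against 173, 157, 132 and 136 CPM, without overlap (log2 change 0.64, SE 0.16, unadjusted p = 0.00185, adjusted p = 0.14). Acot4, a peroxisomal thioesterase, was at 176, 432, 403, 293 and 348 against 189, 236, 172 and 126 CPM, and DR mouse 61 lay among the AL mice (log2 change 0.87, SE 0.27, unadjusted p = 0.00752, adjusted p = 0.276). Cyp4a10, a fatty acid omega-hydroxylase chosen after its values were seen, was at 163, 218, 204, 193 and 1002 against 222, 116, 109 and 119 CPM. DR mouse 67 held 1002 CPM and the other 4 DR mice at most 218 CPM, below AL mouse 63 (log2 change 1.33, SE 0.55, unadjusted p = 0.0333, adjusted p = 0.474). Of 5 ketone body genes, 4 were higher and 1 lower, and none was called by edgeR (at an unadjusted p under 0.05, 0 were higher and 0 lower; DESeq2 and voom each called none).

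Lipid droplets store triglyceride under a coat of perilipins. Of 19 lipid droplet and lipase genes tested, 12 were higher and 7 lower, and 1 rose. With the unadjusted p under 0.05, 2 were higher and 2 lower, and DESeq2 and voom each called 1 higher and 1 lower. Plin4 (chr17:56100591-56109803, minus strand), a perilipin best known from fat cells, was at 6.91, 13.2, 12.3, 8.07 and 10.8 CPM in the DR mice and 0.878, 1.67, 2.43 and 1.17 CPM in the AL mice. It had the largest log2 change among the called genes, and even the highest AL liver, mouse 68, was far below the lowest DR liver, mouse 61 (6.96-fold higher; log2 change 2.80, SE 0.31, adjusted p = 0.00495). An exon of Hdgfl2 overlaps it on the opposite strand. The fat cell markers Cfd, Lep and Retn had 0 counts in all 9 livers and the summed adipocyte markers were 11.3 to 17.2 CPM in the DR mice and 11.8 to 16.3 CPM in the AL mice. Most of that sum was Lipe (mean 12.8 CPM over the 9 livers), also a member of the lipid droplet and lipase list. The sum therefore says little about fat cells. Plin5, the perilipin that ties droplets to mitochondria, was at 37.4, 31.5, 36.6, 36.7 and 104 against 28.7, 25.4, 30.7 and 25.8 CPM. DR mouse 67 held 104 CPM where the other DR mice held at most 37.4 CPM, and all DR values were above the AL values (log2 change 0.83, SE 0.34, unadjusted p = 0.0302, adjusted p = 0.454). Pnpla3, a lipase and acyltransferase gene induced by insulin and carbohydrate, was at 16.8, 4.36, 8.74, 7.79 and 4.18 CPM in the DR mice and 23.2, 27.1, 18.3 and 33.6 CPM in the AL mice. Its groups did not overlap, and it was not called (log2 change -1.63, SE 0.37, unadjusted p = 9.74e-04, adjusted p = 0.113). Plin3 was at 34.3 to 55.4 CPM in the DR mice and 51.4 to 63.6 CPM in the AL mice (log2 change -0.41, SE 0.16, unadjusted p = 0.0271, adjusted p = 0.438).

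Glucose production had a higher mean in every tested gene: 12 of 12 gluconeogenesis genes were higher, and none was called by edgeR (at an unadjusted p under 0.05, 5 were higher and 0 lower; DESeq2 called 2 higher and voom 1 higher). Their median log2 change was 0.54, and 0.34 without DR mouse 67. Without AL mouse 68, 11 were higher and 1 lower, and 2 reached an unadjusted p under 0.05. Pck1, which encodes the cytosolic phosphoenolpyruvate carboxykinase, was at 2339, 2123, 2822, 2315 and 4552 CPM in the DR mice and 940.0, 1181, 1449 and 1110.3 CPM in the AL mice. The lowest DR liver held 2123 CPM and the highest AL liver 1449 CPM (log2 change 1.27, SE 0.25, unadjusted p = 3.53e-04, adjusted p = 0.0768). Sds, serine dehydratase, was at 384, 331, 504, 376 and 662 against 229.8, 239.5, 233 and 317 CPM, also without overlap (log2 change 0.83, SE 0.22, unadjusted p = 0.00315, adjusted p = 0.192). Slc37a4, the glucose 6-phosphate transporter of the endoplasmic reticulum, was at 177 to 419.9 CPM in the DR mice and 102 to 223 CPM in the AL mice (log2 change 0.78, SE 0.30, unadjusted p = 0.0234, adjusted p = 0.422). Pck1 and Sds are also markers of periportal hepatocytes. The 8 periportal markers summed to 5208 to 10320.0 CPM in the DR mice and 3944 to 5459 CPM in the AL mice, highest in DR mouse 67, and 5 were higher and 3 lower; their part in the result was not tested.

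Glycolysis and glycogen genes were split, with 8 higher and 8 lower of 16, and none was called by edgeR (at an unadjusted p under 0.05, 4 were higher and 2 lower; DESeq2 called 2 higher and voom 1 higher). The median log2 change was -0.01, from -0.14 without AL mouse 68 to 0.16 without AL mouse 63. Gys2, liver glycogen synthase, was at 249, 174, 209, 249 and 442 against 148, 119.8, 100.1 and 132 CPM, without overlap (log2 change 1.08, SE 0.26, unadjusted p = 0.00155, adjusted p = 0.134). Ppp1r3c, a glycogen-targeting subunit of protein phosphatase 1, was at 21.6, 17.6, 13.6, 13.6 and 4.41 against 30.4, 30.7, 24.4 and 32.03 CPM, lower in every DR liver than in any AL liver (log2 change -1.06, SE 0.33, unadjusted p = 0.00802, adjusted p = 0.279). Slc2a2, the glucose transporter GLUT2, was at 535, 578, 535, 558 and 462 against 414, 339, 303 and 429 CPM (log2 change 0.52, SE 0.15, unadjusted p = 0.00581, adjusted p = 0.248). All DR values of Slc2a2 lay above the AL values.

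Most fat synthesis genes had a lower mean under restriction. Of 24 fatty acid synthesis genes, 18 were lower and 6 higher, and none was called by edgeR (at an unadjusted p under 0.05, 2 were higher and 8 lower; DESeq2 called 2 higher and voom 1 higher). Their median log2 change was -0.54, and it ran from -0.67 without DR mouse 61 to -0.33 without AL mouse 69. Scd1, stearoyl-CoA desaturase, chosen after its values were seen, was at 10658, 1177, 2322, 2745 and 679 CPM in the DR mice and 12773, 6416, 5759 and 18549 CPM in the AL mice. DR mouse 61 held 10658 CPM, inside the AL range, and the other 4 DR mice at most 2745 CPM, under all AL mice (log2 change -1.63, SE 0.70, unadjusted p = 0.0395, adjusted p = 0.498). Fasn, fatty acid synthase, likewise chosen afterwards, was at 785, 330.0, 393, 448 and 244 against 574, 571, 585 and 1256 CPM. Again DR mouse 61 was inside the AL range, and AL mouse 69 was highest (log2 change -0.76, SE 0.35, unadjusted p = 0.0512, adjusted p = 0.548). Acacb, the acetyl-CoA carboxylase of mitochondria, was at 142, 77.1, 90.96, 85.2 and 121 against 133, 149.5, 147 and 203 CPM (log2 change -0.61, SE 0.21, unadjusted p = 0.0125, adjusted p = 0.338). Lpin2, a lipin of the same list, was at 256 to 449 CPM in the DR mice and 159.7 to 258 CPM in the AL mice, in the other direction (log2 change 0.81, SE 0.22, unadjusted p = 0.00329, adjusted p = 0.196). Of 24 cholesterol synthesis and uptake genes, 19 were lower and 5 higher, and none was called by edgeR (at an unadjusted p under 0.05, 0 were higher and 3 lower; DESeq2 and voom each called none). The median log2 change was -0.12, from -0.27 without DR mouse 61 to -0.07 without AL mouse 69. Mvd, an enzyme of the mevalonate pathway, was at 15.9 to 43.8 CPM in the DR mice and 36.8 to 58.6 CPM in the AL mice (log2 change -0.88, SE 0.27, unadjusted p = 0.00684, adjusted p = 0.264).

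Bile acid genes showed no common direction: 13 of 22 were higher and 9 lower, and none was called by edgeR (at an unadjusted p under 0.05, 3 were higher and 2 lower; DESeq2 and voom each called 1 higher and 2 lower). Hsd3b7, which acts on the sterol ring early in bile acid synthesis, was at 263, 128, 145, 132 and 190.3 CPM in the DR mice and 494, 341, 341 and 407 CPM in the AL mice. The groups did not overlap (log2 change -1.20, SE 0.23, unadjusted p = 2.84e-04, adjusted p = 0.0758). Abcb11, the bile salt export pump, was at 239.6, 153, 181, 142 and 209.7 CPM in the DR mice and 352, 393, 287 and 332 CPM in the AL mice. It was also lower in every DR liver (log2 change -0.88, SE 0.18, unadjusted p = 4.76e-04, adjusted p = 0.0866). Slco1a4, an organic anion uptake carrier, was at 190.2, 223, 198, 212 and 169 against 132, 155, 104 and 112 CPM, higher in every DR liver (log2 change 0.66, SE 0.16, unadjusted p = 0.00152, adjusted p = 0.133). Cyp7a1, the rate-limiting enzyme of bile acid synthesis, chosen after its values were seen, was at 455, 601, 493, 464 and 308 against 269, 342, 376 and 288 CPM, and DR mouse 67 lay inside the AL range (log2 change 0.54, SE 0.20, unadjusted p = 0.0192, adjusted p = 0.401).

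Flavin monooxygenases oxidise drugs and other foreign compounds. Fmo2 (chr1:162874317-162898726, minus strand) was at 72.6, 79.2, 86.3, 74.3 and 68.7 CPM in the DR mice and 43.3, 44.9, 31.7 and 37.97 CPM in the AL mice. Its lowest DR value was 68.7 CPM and its highest AL value 44.9 CPM, and it rose (1.93-fold higher; log2 change 0.95, SE 0.14, adjusted p = 0.0254). Fmo5 was at 643, 564, 534, 593 and 893 against 394, 244, 319 and 365 CPM, without overlap and not called (log2 change 0.96, SE 0.20, unadjusted p = 5.84e-04, adjusted p = 0.0894).

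Of 30 xenobiotic metabolism genes tested, 19 were higher and 11 lower, and 1 rose, where 0.152% of all genes did. The unadjusted p was under 0.05 for 7 that were higher and 3 that were lower. DESeq2 called 5 higher and 1 lower, and voom 2 higher. Cytochrome P450 enzymes carry heme, and Alas1 (chr9:106233455-106248654, minus strand) encodes the rate-limiting enzyme of heme synthesis. It was at 533, 676, 540.4, 676 and 706 CPM in the DR mice and 226, 218, 368 and 207 CPM in the AL mice. AL mouse 68 held 368 CPM, well above the other AL mice, and still under every DR mouse (2.46-fold higher; log2 change 1.30, SE 0.20, adjusted p = 0.0308). Cyp2a5, a cytochrome P450, was at 1522, 1818, 1457, 1655 and 1219 against 927, 651, 849 and 525 CPM, and Cyp2c54, another one, at 114, 195, 134, 73.7 and 72.1 against 19.8, 20.03, 32.4 and 52.3 CPM. In both, every DR value was above every AL value and the adjusted p was 0.0758 and 0.0768. The gene families are large and reads can be shared with near-identical members. Nr1i2, the gene of the xenobiotic receptor PXR, was at 47.2, 72.8, 77.7, 52.6 and 74.8 against 37.9, 38.5, 37.2 and 30.1 CPM (log2 change 0.86, SE 0.18, unadjusted p = 5.74e-04, adjusted p = 0.0892). Por, the electron donor of these P450 enzymes, chosen after its values were seen, was at 813, 454, 534, 617 and 1394 against 451, 262, 349 and 336 CPM, and DR mouse 67 stood highest (log2 change 1.13, SE 0.32, unadjusted p = 0.00472, adjusted p = 0.23). The groups did not overlap in either gene.

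Liver expression differs by sex through growth hormone, and the 9 mice were all female. Of 24 female-biased liver genes, 13 were higher and 11 lower, and the genes that rose included Fmo2 and Rdh16f1. An unadjusted p under 0.05 was reached by 4 that were higher and 3 that were lower, and DESeq2 and voom each called 4 higher. The list median was 0.04 (log2), from -0.10 without DR mouse 67 to 0.10 without AL mouse 63. Of 15 male-biased genes tested, 10 were lower and 5 higher, and none was called by edgeR (at an unadjusted p under 0.05, 1 were higher and 1 lower; DESeq2 and voom each called none). Their median was -0.36, and -0.12 without AL mouse 68. Rdh16f1 (chr10:127759787-127792694, plus strand), of a retinol dehydrogenase family, was at 179, 116, 108, 176 and 247 CPM in the DR mice and 76.3, 43.1, 39.8 and 43.2 CPM in the AL mice. AL mouse 63 was above the other AL mice, and below all DR mice (3.26-fold higher; log2 change 1.70, SE 0.29, adjusted p = 0.0478). It shares exons with Rdh9, so its reads may be counted for either gene. Rdh9 was at 203, 123, 115, 194 and 273 against 87.6, 49.04, 43.03 and 47.2 CPM (log2 change 1.68, SE 0.31, unadjusted p = 1.77e-04, adjusted p = 0.0674). Of 18 retinoid genes tested, 7 were higher and 11 lower, with 3 higher and 5 lower at an unadjusted p under 0.05. For this list DESeq2 called 3 higher, and voom 2 higher and 1 lower. Rdh11, a retinal reductase, was at 45.9 to 120.3 CPM in the DR mice and 108 to 138 CPM in the AL mice (log2 change -0.84, SE 0.26, unadjusted p = 0.00818, adjusted p = 0.281). Prom1 and Cyp2c69 were at 2.51 to 12.97 CPM in the DR mice and 9.88 to 21.3 CPM in the AL mice and 287 to 781 CPM in the DR mice and 712 to 1014 CPM in the AL mice (adjusted p = 0.26 and adjusted p = 0.339).

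In the growth hormone and IGF axis 8 genes were higher and 5 lower, and none was called by edgeR (at an unadjusted p under 0.05, 2 were higher and 1 lower; DESeq2 and voom each called 1 higher). The median log2 change of 0.15 was -0.16 without DR mouse 67. Igfbp2, an IGF-binding protein that insulin lowers, was at 554, 496, 584, 515 and 989 CPM in the DR mice and 264, 275, 352 and 324 CPM in the AL mice. Every DR liver was above every AL liver (log2 change 1.05, SE 0.22, unadjusted p = 6.71e-04, adjusted p = 0.0967). Igf1, the main growth factor from the liver, chosen after its values were seen, was at 797, 1059.7, 1309, 944 and 1004 CPM in the DR mice and 865, 984, 949 and 789 CPM in the AL mice, with overlapping groups (log2 change 0.19, SE 0.17, unadjusted p = 0.288, adjusted p = 0.846). Among 18 insulin, FoxO and mTOR regulators, 12 were higher and 6 lower, and none was called by edgeR (at an unadjusted p under 0.05, 3 were higher and 2 lower; DESeq2 called 1 higher and voom none). Foxo1, the transcription factor that insulin shuts out of the nucleus, was at 63.3, 64.5, 66.2, 60.4 and 79.2 CPM in the DR mice and 49.9, 48.5, 44.3 and 45.7 CPM in the AL mice. Every DR value was above every AL value (log2 change 0.50, SE 0.13, unadjusted p = 0.00224, adjusted p = 0.157). Sesn3, a stress-induced regulator of mTOR, was at 9.75 to 15.3 CPM in the DR mice and 16.8 to 18.9 CPM in the AL mice (log2 change -0.51, SE 0.16, unadjusted p = 0.00761, adjusted p = 0.277).

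Hydrogen sulphide is made from cysteine and oxidised in mitochondria. Of 15 genes of sulphur amino acid and sulphide metabolism, 10 were lower and 5 higher, and 1 fell. In this list 1 was higher and 1 lower at an unadjusted p under 0.05, and DESeq2 and voom each called 1 lower. Ethe1 (chr7:24587543-24608925, plus strand), the persulphide dioxygenase of sulphide oxidation, was at 46.3, 24.1, 23.5, 24.5 and 31.5 CPM in the DR mice and 95.5, 69.2, 75.4 and 86.7 CPM in the AL mice. DR mouse 61 was the highest of its group at 46.3 CPM, under the lowest AL value of 69.2 CPM (2.73-fold lower; log2 change -1.45, SE 0.21, adjusted p = 0.0245). An exon of Zfp575 overlaps Ethe1 on the opposite strand. Of 29 amino acid breakdown and urea cycle genes, 22 were higher and 7 lower, and none was called by edgeR (at an unadjusted p under 0.05, 3 were higher and 1 lower; DESeq2 called 1 higher and voom none). Their median log2 change of 0.17 was 0.00 without DR mouse 67. Asl, an enzyme of the urea cycle, was at 653 to 995 CPM in the DR mice and 481 to 631 CPM in the AL mice (log2 change 0.55, SE 0.17, unadjusted p = 0.00886, adjusted p = 0.287). Kynu, of tryptophan breakdown, was at 55.7 to 73.96 CPM in the DR mice and 76.4 to 91.9 CPM in the AL mice (log2 change -0.44, SE 0.13, unadjusted p = 0.00706, adjusted p = 0.267). In serine, glycine and folate metabolism 4 genes were higher and 6 lower, and none was called by edgeR (at an unadjusted p under 0.05, 1 were higher and 1 lower; DESeq2 called 1 higher and 1 lower and voom none). Mthfd1l, a mitochondrial folate enzyme, was at 2.36, 1.72, 1.49, 3.06 and 9.87 against 0.988, 0.7702, 0.971 and 0.753 CPM (log2 change 2.10, SE 0.61, unadjusted p = 0.00522, adjusted p = 0.238). DR mouse 67 was highest, and the other 4 DR mice held at most 3.06 CPM.

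Among NRF2 targets 14 of 19 were lower and 5 higher, and none was called by edgeR (at an unadjusted p under 0.05, 0 were higher and 4 lower; DESeq2 called 1 lower and voom none). The median log2 change was -0.18. Gstm3, a glutathione transferase, was at 46.8 to 111 CPM in the DR mice and 98.3 to 165 CPM in the AL mice (log2 change -0.87, SE 0.24, unadjusted p = 0.00392, adjusted p = 0.212). Of 22 endoplasmic reticulum stress genes 18 were lower and 4 higher, and none was called by edgeR (at an unadjusted p under 0.05, 1 were higher and 1 lower; DESeq2 called 1 lower and voom none). Atf5, a stress-induced transcription factor, was at 37.9, 38.2, 50.97, 53.2 and 49.6 against 54.2, 136, 112 and 69.1 CPM, lower in every DR liver (log2 change -1.01, SE 0.25, unadjusted p = 0.00211, adjusted p = 0.154). Of 15 heat shock and cold-inducible genes 10 were higher and 5 lower, and none was called by edgeR (at an unadjusted p under 0.05, 1 were higher and 2 lower; DESeq2 called 1 higher and voom none). Rbm3, an RNA-binding protein made at low body temperature, was at 61.8, 67.1, 57.3, 82.4 and 55.1 CPM in the DR mice and 42.4, 35.7, 34.6 and 47.8 CPM in the AL mice. All DR values were above all AL values (log2 change 0.69, SE 0.16, unadjusted p = 0.00147, adjusted p = 0.133). Of 20 autophagy genes 13 were higher and 7 lower, with 1 higher and 0 lower at an unadjusted p under 0.05. Of 11 genes listed for p53 targets and senescence 3 were higher and 8 lower, with 1 and 1 at that mark. The p53 target Bbc3, described later, is called and is not in that list. Of 23 acute phase genes 12 were higher and 11 lower, with 0 and 2 at that mark, and of 7 VEGF and angiopoietin receptors 3 were higher and 4 lower, with 0 and 0. In these 4 lists edgeR, DESeq2 and voom each called 0 genes.

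**Figure D3:**
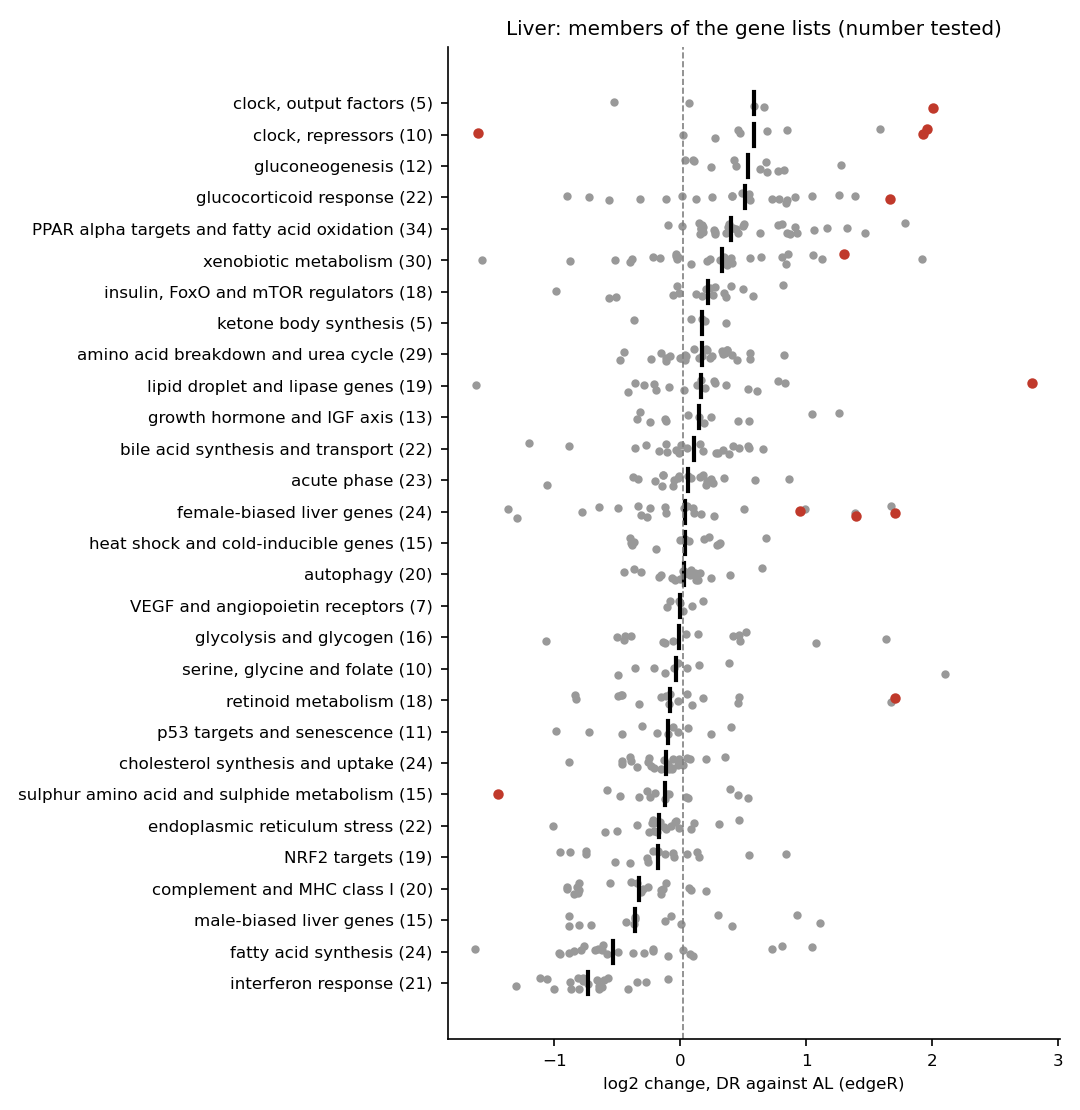
log2 change (x axis, DR against AL) of every tested member of 29 of the 31 gene lists, with the number tested in brackets. Red points are called genes, grey points are not, black bars are list medians and the dashed line is the median over all genes, 0.02; the medians run from the interferon list at -0.73 to the clock output factors at 0.59.

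The lowest median among the 31 lists was that of the interferon response, the antiviral and antigen-handling genes that interferons switch on. All 21 genes had a lower mean under restriction, and none was called by edgeR (at an unadjusted p under 0.05, 0 were higher and 12 lower; DESeq2 called 2 lower and voom none). The median log2 change was -0.73. AL mouse 68 stood apart. The list summed to 648 to 834 CPM in the DR mice and 963 to 1981 CPM in the AL mice, and AL mouse 68 held 1981 CPM where the other AL mice held 963 to 994 CPM. Without it the median was -0.36, 20 genes were lower and 1 higher, and 4 reached an unadjusted p under 0.05. Fatty acid synthesis then had a lower median (-0.60), so the rank of the interferon list rested on this mouse. Iigp1, an interferon-inducible GTPase, was at 197, 178, 167, 175 and 168 CPM in the DR mice and 281, 276, 629 and 237 CPM in the AL mice. All DR values lay under all AL values, of which mouse 68 held the highest (log2 change -1.01, SE 0.26, unadjusted p = 0.00272, adjusted p = 0.173). Igtp, of the same family, was at 37.9, 28.7, 18.97, 39.8 and 29.6 CPM in the DR mice and 61.1, 44.03, 149 and 51.4 CPM in the AL mice, and Usp18, which removes ISG15 from proteins, at 6.696 to 11.7 CPM in the DR mice and 11.3 to 24.8 CPM in the AL mice (adjusted p = 0.201 and adjusted p = 0.244). Of 20 complement and MHC class I genes 17 were lower and 3 higher, and none was called by edgeR (at an unadjusted p under 0.05, 0 were higher and 5 lower; DESeq2 and voom each called 1 lower). Their median was -0.33. Without AL mouse 68 it was -0.24, and 2 genes were lower and 0 higher at an unadjusted p under 0.05. C4a, a complement gene with a near-identical neighbour, was at 12.6, 10.8, 7.72, 7.51 and 7.08 against 16.2, 17.3, 15.4 and 19.2 CPM, and Psmb9, an immunoproteasome subunit, at 24.9, 22.6, 19.7, 25.6 and 14.3 against 27.9, 29.3, 66.8 and 35.3 CPM. Neither gene's groups overlapped (adjusted p = 0.0966 and adjusted p = 0.267).

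The tested markers of immune, red blood and dividing cells had a lower mean in the DR mice than in the AL mice. All 9 Kupffer cell and macrophage markers had a lower mean, with sums of 110.4 to 403 CPM in the DR mice and 213 to 654 CPM in the AL mice, highest in AL mouse 68. Clec4f, the defining marker of Kupffer cells, was at 80.9, 33.7, 44.2, 125 and 41.9 against 81.4, 70.2, 167 and 99.02 CPM, with overlap (log2 change -0.69, SE 0.39, unadjusted p = 0.104, adjusted p = 0.671). The 6 B and plasma cell markers tested were all lower, with sums of 29.02 to 64.9 CPM in the DR mice and 35.6 to 187 CPM in the AL mice, and so were the 4 of T and NK cells, with sums of 7.44 to 15.9 CPM in the DR mice and 12.5 to 27.2 CPM in the AL mice. The 3 neutrophil markers tested were lower and summed over all 7 to 6.08 to 25.05 CPM in the DR mice and 9.33 to 48.9 CPM in the AL mice, and the 4 dendritic cell and MHC class II genes were lower at 261 to 495 CPM in the DR mice and 326 to 617 CPM in the AL mice. For red blood cells all 5 tested were lower, with sums of 62.9 to 97.2 CPM in the DR mice and 97.8 to 217 CPM in the AL mice. For dividing cells all 5 were lower, with sums of 8.94 to 16.2 CPM in the DR mice and 18.7 to 43.03 CPM in the AL mice, and the summed levels of the diets did not overlap for either cell type. Top2a, a topoisomerase of dividing cells, was at 1.52, 2.11, 1.302, 1.39 and 0.813 CPM in the DR mice and 3.73, 3.34, 8.25 and 4.68 CPM in the AL mice, lower in every DR liver (log2 change -1.79, SE 0.34, unadjusted p = 2.69e-04, adjusted p = 0.0758). Of these markers edgeR called none, with 4 red blood cell, 4 dividing cell, 2 Kupffer, 2 B and plasma cell and 1 T and NK cell markers lower and 0 higher at an unadjusted p under 0.05. Over all genes 4.6% were lower and 4.49% higher at that mark. DESeq2 called 2 red blood cell and 2 dividing cell markers, all lower, and voom 1 of each. Without AL mouse 68 each tested Kupffer, B and plasma, dendritic, red blood and dividing cell marker still had a lower mean. Fewer then reached an unadjusted p under 0.05: 2 red blood cell, 2 dividing cell and 1 Kupffer marker, all lower. The median log2 change went from -0.72 to -0.41 for Kupffer cells and from -0.84 to -0.57 for red blood cells. It went from -1.38 to -1.14 for dividing cells, and the other way, from -0.29 to -0.43, for B and plasma cells. Of the T and NK cell markers 3 were then lower and 1 higher, and of the neutrophil markers 1 was lower and 2 higher (median log2 change 0.11). Their part in the changes of the interferon, complement and MHC genes was not tested.

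Markers of the other liver cells did not share a direction. Sinusoidal endothelium had 4 higher and 6 lower, with sums of 227 to 377 CPM in the DR mice and 298 to 427 CPM in the AL mice. Stellate cells and fibroblasts had 6 higher and 4 lower (502 to 616 CPM in the DR mice and 499 to 545 CPM in the AL mice), and cholangiocytes 5 higher and 1 lower (113 to 198 CPM in the DR mice and 99.7 to 133 CPM in the AL mice). Of the pericentral hepatocyte markers 4 were higher and 4 lower (5507 to 7084 CPM in the DR mice and 4073 to 6594 CPM in the AL mice). Pancreatic acinar markers, of the organ next to the liver, summed to 11.97 to 15.4 CPM in the DR mice and 14.4 to 20.7 CPM in the AL mice. Most of this was Cela1 (mean 12.99 CPM over the 9 livers), and Cpa1, Pnlip, Ctrb1, Cel and Amy2a2 were at 0 counts in all 9 livers. Brain cell markers summed to 15.9 to 27.1 CPM in the DR mice and 13.05 to 21.4 CPM in the AL mice, mostly Syt1 (mean 14.04 CPM over the 9 livers).

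**Figure D4:**
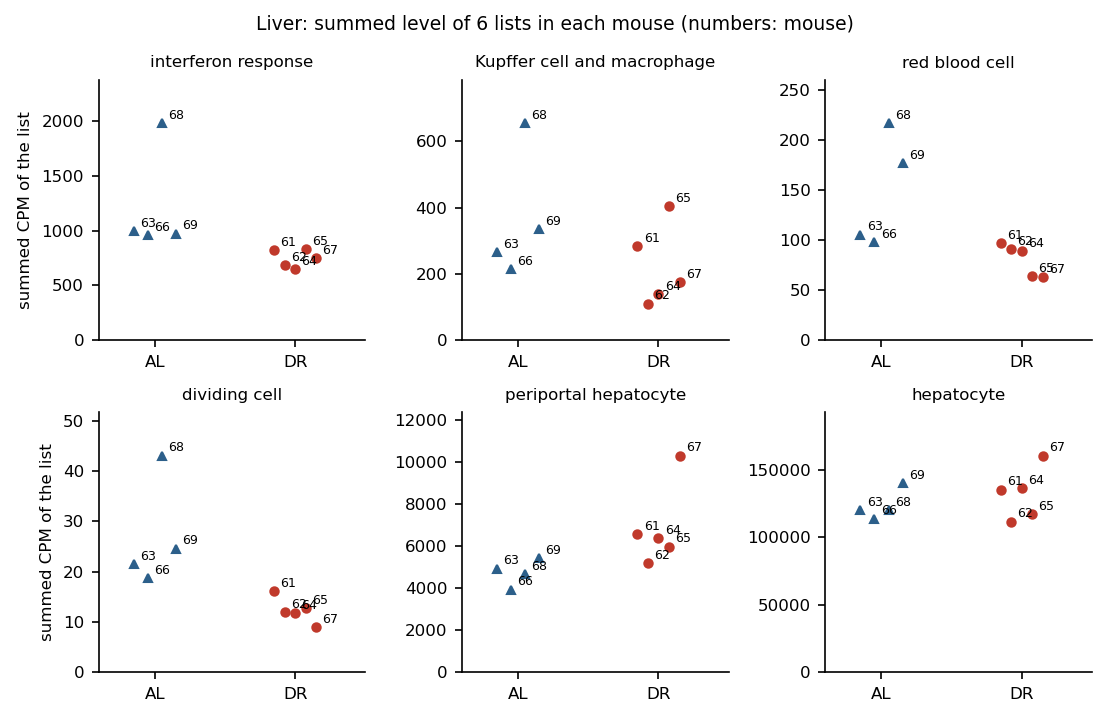
Summed CPM (y axis, from 0) of the interferon list and of 5 marker lists in each liver, with the mouse number beside each point; triangles are AL mice and circles DR mice. AL mouse 68 is highest for the interferon list (1981 CPM), Kupffer cells, red blood cells and dividing cells, and DR mouse 67 for periportal and all hepatocyte markers.

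The other called genes belonged to no list. Alpl (chr4:137741733-137796384, minus strand), tissue-nonspecific alkaline phosphatase, was at 19.5, 18.4, 20.7, 20.04 and 21.1 CPM in the DR mice and 8.34, 7.45, 8.25 and 9.03 CPM in the AL mice. Both groups were tight and far apart (2.41-fold higher; log2 change 1.27, SE 0.13, adjusted p = 0.003). Ppp1r10 (chr17:35916434-35932283, plus strand), a nuclear targeting subunit of protein phosphatase 1, was at 40.4, 42.96, 44.4, 42.3 and 39.9 CPM in the DR mice and 22.2, 18.9, 22.8 and 17.5 CPM in the AL mice. The DR livers held between 39.9 and 44.4 CPM, all above the AL livers (2.07-fold higher; log2 change 1.05, SE 0.13, adjusted p = 0.00905). Il6ra (chr3:89864059-89913196, minus strand), the receptor chain for interleukin 6, was at 93.7, 132, 109, 107 and 115 CPM in the DR mice and 45.6, 60.8, 61.3 and 45.8 CPM in the AL mice. It rose in every DR liver past the AL range (2.09-fold higher; log2 change 1.06, SE 0.16, adjusted p = 0.0245). Nmrk1 (chr19:18631950-18652428, plus strand), a kinase that makes NAD from nicotinamide riboside, was at 108, 168, 179, 145 and 161 CPM in the DR mice and 66.8, 78.7, 73.9 and 69.8 CPM in the AL mice. DR mouse 61 was lowest of its group and still above all AL mice (2.11-fold higher; log2 change 1.08, SE 0.16, adjusted p = 0.0254).

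Lonrf1 (chr8:36216064-36249516, minus strand), a RING finger protein gene, was at 11.1, 9.91, 10.1, 10.02 and 14.05 CPM in the DR mice and 4.61, 4.11, 3.24 and 5.19 CPM in the AL mice. No DR value overlapped an AL value (2.55-fold higher; log2 change 1.35, SE 0.19, adjusted p = 0.0225). Rhobtb1 (chr10:69151434-69291791, plus strand), an atypical small GTPase gene, was at 96.4, 96.5, 85.7, 89.6 and 125 CPM in the DR mice and 55.8, 57.1, 47.6 and 47.7 CPM in the AL mice, with DR mouse 67 highest (1.897-fold higher; log2 change 0.92, SE 0.15, adjusted p = 0.0394). Nrg4 (chr9:55220222-55326844, minus strand), a secreted ligand of ErbB receptors, was at 39.9, 58.2, 56.1, 48.4 and 63.6 CPM in the DR mice and 24.9, 24.8, 30.3 and 30.4 CPM in the AL mice. The lowest DR value was 39.9 CPM and the highest AL value 30.4 CPM (1.93-fold higher; log2 change 0.95, SE 0.16, adjusted p = 0.0491). An exon of Fbxo22 overlaps Nrg4 on the opposite strand. Other called genes with an exon overlap on the opposite strand were Usp2, Gas7 (with Glp2r), Alas1, Il6ra, Rhobtb1 and AA986860. Without strand the reads of such overlaps cannot be assigned. AA986860 (chr1:130731976-130744622, plus strand), named only by a sequence clone, was at 4.55, 6.61, 5.86, 5.29 and 8.24 CPM in the DR mice and 1.097, 1.54, 2.75 and 0.669 CPM in the AL mice, a level of few counts (4.295-fold higher; log2 change 2.10, SE 0.36, adjusted p = 0.0478).

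Among the genes that fell, Gas7 (chr11:67455437-67688990, plus strand), an adaptor of the actin skeleton, was at 2.53, 3.04, 2.79, 2.505 and 2.67 CPM in the DR mice and 6.803, 8.73, 6.31 and 7.69 CPM in the AL mice. The highest DR liver was at 3.04 CPM and the lowest AL liver at 6.31 CPM (2.71-fold lower; log2 change -1.44, SE 0.18, adjusted p = 0.00905). S100a10 (chr3:93555080-93564643, plus strand), the partner of annexin A2, was at 54.9, 46.4, 41.4, 38.1 and 51.5 CPM in the DR mice and 97.2, 111, 147 and 106 CPM in the AL mice. No DR liver reached the AL range (2.48-fold lower; log2 change -1.31, SE 0.17, adjusted p = 0.00992). Psen2 (chr1:180227004-180263438, minus strand), presenilin 2, a catalytic subunit of gamma-secretase, was at 158, 117, 120.1, 101 and 90.4 CPM in the DR mice and 236, 359, 277 and 280.3 CPM in the AL mice. DR mouse 61 was highest in its group, below every AL mouse (2.46-fold lower; log2 change -1.30, SE 0.19, adjusted p = 0.0245). Bbc3 (chr7:16308393-16318205, plus strand), the cell death gene PUMA, is a p53 target; it was at 5.05, 5.15, 4.84, 5.57 and 4.88 CPM in the DR mice and 9.77, 9.76, 10.7 and 9.45 CPM in the AL mice. Both groups were tight (1.95-fold lower; log2 change -0.96, SE 0.14, adjusted p = 0.0245). Csrp3 (chr7:48830398-48848033, minus strand), a LIM domain protein known from muscle, was at 22.1, 18.1, 19.3, 21.99 and 23.3 CPM in the DR mice and 34.01, 35.7, 40.1 and 33.5 CPM in the AL mice, the smallest change of the 26 (1.71-fold lower; log2 change -0.77, SE 0.13, adjusted p = 0.0448). Fam89a (chr8:124740257-124751832, minus strand) was at 4.55, 2.91, 3.53, 4.45 and 2.21 CPM in the DR mice and 11.1, 8.601, 8.25 and 8.03 CPM in the AL mice, apart in all mice (2.603-fold lower; log2 change -1.38, SE 0.23, adjusted p = 0.0438).

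Of the genes with a mean of at least 10 CPM, 346 had groups that did not overlap without being called. How many genes reached that level is not given here, so the 346 cannot be read as a share. Complete separation of the diets, at any level and with called genes included, was seen in 4.22% of genes (499 of 11815). The largest changes among the 346 included Per2 and Cyp2c54 above and the genes that follow. Lingo4, a gene of a leucine-rich repeat protein, was at 8.59, 55.8, 38.7, 21.99 and 10.8 CPM in the DR mice and 2.52, 5.39, 3.24 and 2.34 CPM in the AL mice. The groups did not overlap, with DR mice 62 and 64 highest (log2 change 3.04, SE 0.57, unadjusted p = 2.45e-04, adjusted p = 0.0758). It overlaps the annotated gene Gm43401 on the opposite strand, and without strand the reads of that overlap cannot be assigned. Mfsd2a, a carrier of lysophospholipids, was at 73.1, 93.8, 91.4, 115 and 222 CPM in the DR mice and 25.1, 36.8, 46.1 and 32.2 CPM in the AL mice. DR mouse 67 was highest and every DR value was above the AL values (log2 change 1.77, SE 0.33, unadjusted p = 1.96e-04, adjusted p = 0.0689). Etnppl, which breaks down phosphoethanolamine, was at 76.3, 86.2, 102, 65.7 and 163 against 48.1, 40.4, 31.4 and 48.3 CPM (log2 change 1.23, SE 0.26, unadjusted p = 6.58e-04, adjusted p = 0.0966). Hamp2, a paralog of the iron hormone hepcidin, was at 442, 746, 466, 539.6 and 513 against 1122, 2657, 835 and 967 CPM, with AL mouse 66 highest (log2 change -1.37, SE 0.33, unadjusted p = 0.00149, adjusted p = 0.133). Mup15, a major urinary protein gene whose family members are near-identical, was at 8.76, 1.06, 0.279, 2.23 and 2.902 against 9.11, 15.02, 31.5 and 19.7 CPM (log2 change -2.69, SE 0.66, unadjusted p = 0.00173, adjusted p = 0.14). Ly6a and Gbp10 were highest in AL mouse 68. Ly6a, a lymphocyte and endothelial surface antigen induced by interferon, was at 18.2, 10.2, 10.9, 16.7 and 21.4 against 32.1, 25.9, 292 and 26.2 CPM (log2 change -2.60, SE 0.72, unadjusted p = 0.00386, adjusted p = 0.209). Gbp10, an interferon-inducible GTPase, was at 5.22, 2.38, 1.77, 3.896 and 3.72 against 19.3, 7.06, 41.3 and 5.44 CPM (log2 change -2.45, SE 0.58, unadjusted p = 0.00135, adjusted p = 0.133).

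Whether a diet change in liver differed from that in brain was tested in the same mice, on the liver log2 CPM of each mouse minus its value over the brain regions (limma, 11350 genes, DR against AL). The difference passed for 10 genes (0.0881%), 6 with the higher change in liver and 4 with the lower, and all 10 were among the 26. Of the 24 called genes that were also tested in brain, 18 had the same sign there and 6 the other. The share of equal signs over all genes is not given here. Some of these signs come from brain changes smaller than their SE, such as Lonrf1 (0.02, SE 0.05) and Nmrk1 (0.02, SE 0.04). Nr1d1 had a brain change of 0.03 (SE 0.04) and a difference of -1.65 (SE 0.24, adjusted p = 0.0362). Usp2 was higher in both tissues, by 0.30 (SE 0.03) in brain, and the difference was 1.70 (SE 0.18, adjusted p = 0.0141). Cry1 had a brain change of 0.36 (SE 0.04) and a difference of 1.47 (SE 0.18, adjusted p = 0.0174). These 3 clock genes moved further in liver than in brain.

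Alpl had the opposite sign in brain, -0.32 (SE 0.13), and a difference of 1.56 (SE 0.19, adjusted p = 0.0174). For Psen2 the difference was -1.31 (SE 0.19, adjusted p = 0.0362), with 0.00 (SE 0.03) in brain. Gas7 differed by -1.30 (SE 0.15, adjusted p = 0.0174) and Bbc3 by -1.07 (SE 0.14, adjusted p = 0.022). The other 3 were Lonrf1 at 1.29 (SE 0.17, adjusted p = 0.022), Ppp1r10 at 1.10 (SE 0.15, adjusted p = 0.0248) and Rhobtb1 at 1.03 (SE 0.15, adjusted p = 0.0362). For Ciart, Plin4 and Fmo2 the difference was not called. Ciart changed by 0.75 (SE 0.03) in brain (difference 1.15 (SE 0.19, adjusted p = 0.0582)), Plin4 by 2.03 (SE 0.25) (difference 0.56 (SE 0.27, adjusted p = 0.657)) and Fmo2 by 1.36 (SE 0.19) (difference -0.41 (SE 0.28, adjusted p = 0.816)). The uncalled liver gene Rbm3 had a brain change of 0.69 (SE 0.07), close to its liver value, and a difference of -0.01 (SE 0.15, adjusted p = 1). The number of differences called by limma was 0 without AL mouse 63, DR mouse 64 or AL mouse 69, where 811, 752 and 683 genes had an unadjusted p under 0.05. It was 1 without AL mouse 66, 3 without DR mouse 65, 4 without AL mouse 68, 5 without DR mouse 62, 8 without DR mouse 67 and 31 without DR mouse 61. Of the 10 genes, 0, 2, 2, 5, 7 and 10 remained called in these fits, in the same order. Without pairing liver and brain by mouse (no replicate block) the number called was 51.

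**Figure D5:**
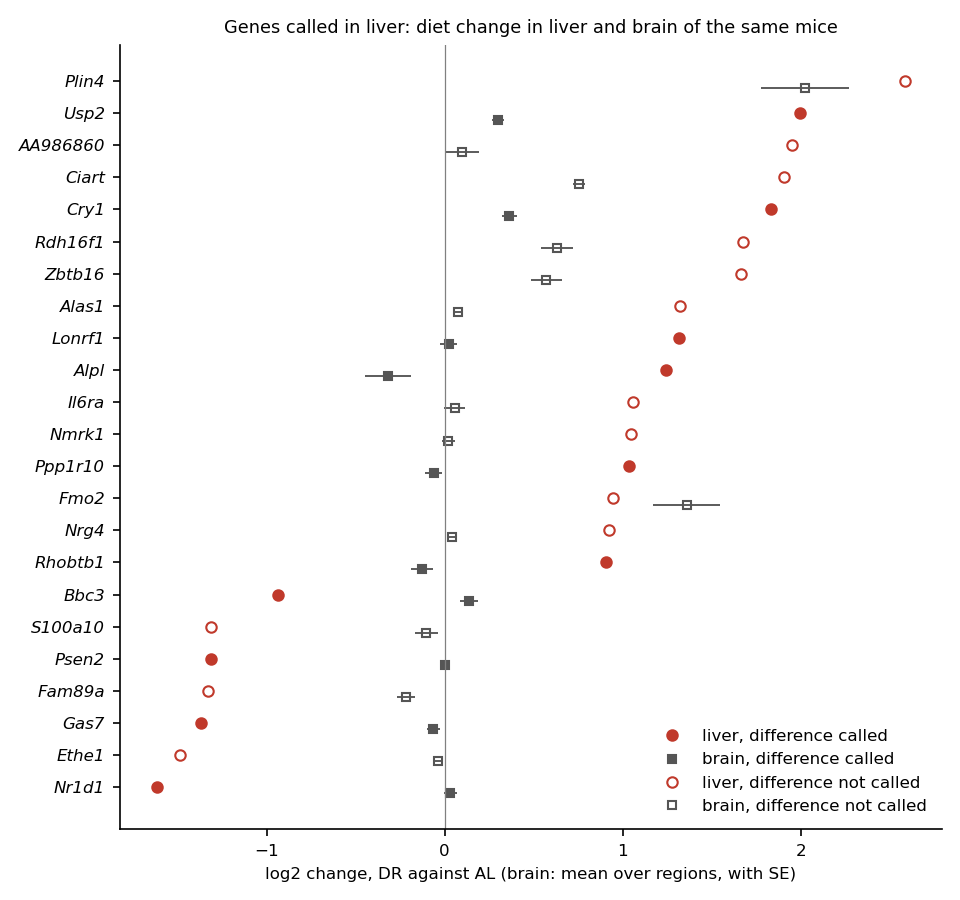
log2 change under restriction (x axis) of 23 called liver genes that were tested in brain: circles give liver and squares the mean over brain regions of the same mice, with SE. Filled symbols mark the 10 genes whose difference passed the test; Nr1d1, Usp2 and Cry1 lie far from their brain values, while Plin4 and Fmo2 are high in both tissues.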

How the data were processed

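RNA was measured in the livers of 5 DR and 4 AL mice. Per the labels' protocols, RNA was isolated on RNeasy columns, cDNA was made with Smart-Seq2, and unstranded libraries were made with Nextera XT. The authors deposited raw read counts per gene in 1 table of 21076 genes and 238 libraries. The submitters' processing notes name Trim Galore 0.3.7, STAR 2.5.3a, DESeq2 and the build GRCm38, without their roles. The counting program and annotation are not given in the sources used here. PCR reads carried no molecular identifiers, so limits from counts cover counting error only.

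Liver counts were filtered (filterByExpr, minimum count 10, minimum total 15), scaled by TMM and fitted without covariates in edgeR 4.0.16 (R 4.3.3; quasi-likelihood F test). P-values were adjusted by Benjamini and Hochberg over all genes tested. CPM values were computed from counts and TMM-scaled totals. A list was described by counts and medians, with no test. Liver and brain were compared with limma 3.58.1 on log2 CPM (prior count 2), made from the deposited counts: the liver value of each mouse minus its mouse term in a fit of brain values on region and mouse. The mouse number pairs liver and brain because it marks the same animal. Deviations from the group means correlated at 0.030 on average within a mouse (-0.086 to 0.151) and at -0.004 between mice. Fits were tested on simulated data.

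Alternatives were DESeq2 1.42.0, RLE size factors, no filter, a stricter filter (50 counts in 4 libraries), limma voom with sample weights, another prior count (0.5), no pairing, and each mouse left out. The list medians without AL mouse 68 were added after its marker levels were seen. Libraries of a group differed by far more than sampling noise (chi-square per degree of freedom at least 8.98 in 16 pairs), so each counted once. Positions are from GENCODE M21 (GRCm38), and promoter sequences from RefSeq (GRCm38.p6), where 19 of the 26 called genes matched. Named genes were all called genes, up to 3 further members of a list by p, the largest changes among uncalled genes at 10 CPM or more without overlap, the most abundant genes, leading markers, and the genes called between liver and brain. The gene lists, members and rules were chosen with earlier results of these data known. Some results, among them 2 of the 26 called genes, are not reported here by name. Members of lists with no row in the table were left out.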

Additional observations from a re-analysis of the deposited data

Results flagged for a closer look

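A sample far from the others of its group was found in 8 of 90 groups examined, where chance gives about 1 in 20, or 4.5. The groups were called genes, sums of cell type marker lists and library measures. The called genes were picked from these same values and all groups share the same mice, so the 4.5 is a rough guide only. Sums of the other gene lists, the interferon list among them, were not examined in this way. In DR mouse 67, Rhobtb1 was at 125 CPM (other DR mice 85.7 to 96.5). In the same mouse the periportal hepatocyte markers summed to 10320.0 CPM (5208 to 6589) and the sinusoidal endothelium markers to 227 CPM (334 to 377). In AL mouse 68, Alas1 was at 368 CPM (other AL mice 207 to 226), the neutrophil markers summed to 48.9 CPM (9.33 to 13.6) and the pancreatic acinar markers to 20.7 CPM (14.4 to 15.2). In AL mouse 63, Rdh16f1 was at 76.3 CPM (other AL mice 39.8 to 43.2) and the pericentral hepatocyte markers summed to 6594 CPM (4073 to 4201).

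The diet change differed between liver and brain of the same mice for 10 genes in limma's test of the difference. In log2 units, liver minus brain, it was -1.31 for Psen2, 1.56 for Alpl, -1.07 for Bbc3, 1.29 for Lonrf1 and 1.70 for Usp2. It was 1.03 for Rhobtb1, 1.47 for Cry1, -1.30 for Gas7, -1.65 for Nr1d1 and 1.099 for Ppp1r10.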

How the results depend on the processing

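The count of 26 called genes was 224 with DESeq2 and 110 with limma voom and sample weights, each including all 26. It was 26 with RLE size factors, 29 without the filter and 24 with the stricter one, and 7 to 55 with 1 mouse left out. The 10 genes whose change differed between liver and brain became 51 with no replicate block (no pairing by mouse), 17 with the stricter filter, 10 with the other prior count and 0 to 31 with 1 mouse left out. Where it was 0, limma gave 811 (without AL mouse 63), 752 (without DR mouse 64) and 683 (without AL mouse 69) genes at an unadjusted p under 0.05. For the 24 called genes that are named, 226 of 333 alternative values stayed past the threshold, 107 did not, and 0 turned direction. The groups of these called genes did not overlap, so a turn was hardly possible. Among the 78 other named genes, 0 turned direction and 77 of 1087 alternative values passed the threshold. The causes were not tested. Precision rests on 3.50 to 12.1 M counts a library and on 4 to 5 mice a group.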
